A study of Brassica napus with 6 samples.

Results

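The 150 transcripts described here were low in 2 of 6 libraries of rapeseed (Brassica napus) flower buds, 1 library from each treatment group. They were chosen by their measured levels: among 24958 transcripts with an upper quartile of at least 10 counts over the 6 libraries, of 65535 tabulated, these had the highest score. The score is the lowest level in amidosulfuron 1, amidosulfuron 3, control 1 and control 2 divided by the higher level in amidosulfuron 2 and control 3, with 1 CPM added to each. CPM here is the estimated count scaled to the total of the tabulated counts of the library. Every difference between those 4 libraries and amidosulfuron 2 and control 3 is therefore given as a description, with no test.

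The study sprayed plants of cultivar Qinyou3 at bolting with 0.3 mg/L amidosulfuron, or with water as control, and took young floral buds at the stage of meiosis of the pollen mother cells, with 3 biological replicates per group. The sources used here do not say how many plants a replicate holds. Plants of both groups were sown in the field and moved to a greenhouse after winter cold.

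Amidosulfuron belongs to the sulfonylurea herbicides, which block acetolactate synthase, the first common enzyme of valine, leucine and isoleucine synthesis, and the series title calls it a gametocide of the male side, an agent used to prevent fertile pollen. A young bud holds sepals, petals, carpels and anthers, and in the anther the tapetum feeds the pollen mother cells as they pass through meiosis. These organs and cell layers are known to switch genes on and off in a fixed order, so a transcript's level in a whole bud depends on the bud's stage as well as on its treatment. In whole buds, fewer cells of a type and less RNA per cell cannot be told apart.

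The tabulated counts per library lay between 1942711 in amidosulfuron 1 and 3596321 in control 1, and the libraries low for these transcripts were not the shallowest, with 2867528 counts in amidosulfuron 2 and 2414727 in control 3. Across all tested transcripts, which are not independent replicates, amidosulfuron 2 and control 3 stood closer to each other (Pearson r of log2(CPM + 1) 0.930) than amidosulfuron 2 to amidosulfuron 1 or 3 (0.914 and 0.900), or control 3 to control 1 or 2 (0.884 and 0.906). The tables name genes only by Brassica rapa identifiers. None of the 20674 gene identifiers, and none of the 110 of the members, is paired with a symbol in the RefSeq gene table of rapeseed, so no gene function is given below and the tissue was not checked against marker genes.

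Most of the transcripts still had counts in amidosulfuron 2 and control 3. Whether the transcripts were present in some buds and absent in others was not tested. Their median level was 9.01 CPM in amidosulfuron 1, 2.96 in amidosulfuron 2 and 11.4 in amidosulfuron 3, against 24.5 CPM in control 1, 12.6 in control 2 and 2.69 in control 3. The lowest and the highest member stood at 1.03 and 211 CPM in amidosulfuron 1, at 0 and 61.0 in amidosulfuron 2, and at 1.46 and 160 in amidosulfuron 3. In the control libraries these limits were 2.22 and 616 CPM in control 1, 1.803 and 579 in control 2, and 0 and 102 in control 3. The ranges overlapped widely between libraries, and the difference lay within each transcript. All 24958 tested transcripts, by contrast, had nearly the same median in every library, 11.4 CPM in amidosulfuron 1, 12.7 in amidosulfuron 2 and 11.6 in amidosulfuron 3, against 11.8, 13.1 and 12.2 CPM in controls 1, 2 and 3.

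**Figure D1:**
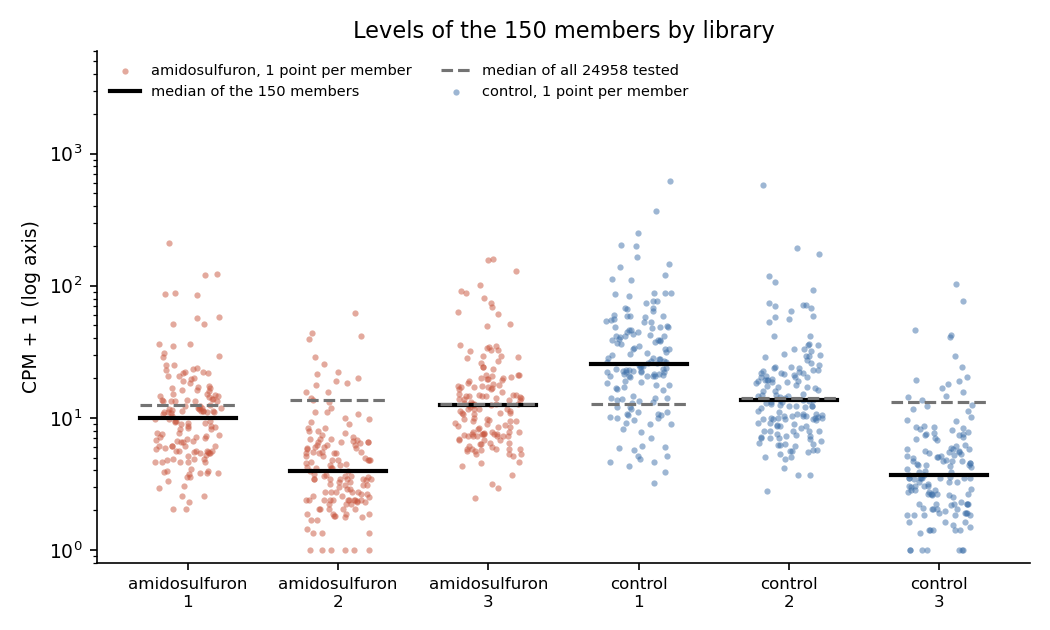
Level of each of the 150 transcripts in each library, as CPM + 1 on a log axis (1 point per transcript, 3 amidosulfuron libraries left, 3 control libraries right). Black bars are the medians of the 150, lowest in amidosulfuron 2 and control 3 and highest in control 1, and dashed grey bars are the medians of all 24958 tested transcripts, which stay between 11.4 and 13.1 CPM.

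Together the 150 transcripts took 0.233%, 0.0841% and 0.282% of the tabulated counts in amidosulfuron 1, 2 and 3, against 0.643%, 0.374% and 0.0918% in controls 1, 2 and 3. The list thus held its largest share in control 1 and its smallest in amidosulfuron 2. The ratio of the mean level in the 4 higher libraries to that in amidosulfuron 2 and control 3 (1 CPM added to both means) had a median of 3.82 over the members, with quartiles of 2.91 and 5.005 and a range from 1.81 to 113. Of the 150, 143 had a ratio over 2, 69 a ratio over 4, 6 a ratio over 8 and 3 a ratio over 16. Among all tested transcripts the median ratio was 1.01, and all 4 libraries stood above both amidosulfuron 2 and control 3 in 8.03%, the condition that all 150 members met through the rule.

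Of the 6 libraries, control 1 stood furthest from the low pair. It was the highest library for 118 of the 150 transcripts, or 78.7%, while it was the highest for 20.4% of all tested transcripts. These shares are not on equal terms, since the rule kept amidosulfuron 2 and control 3 from being highest in a member. Over all tested transcripts those libraries were highest for 17.4% and 12.6%. Control 2 was highest for 15, amidosulfuron 1 for 9 and amidosulfuron 3 for 8. The most frequent order was control 1, control 2, amidosulfuron 3, amidosulfuron 1 and then the low pair, which 52 members followed, and in 80 members control 1 came first and amidosulfuron 1 stood just above the low pair. Between the low libraries there was no common order: control 3 was the lowest for 73 and amidosulfuron 2 for 73, and the rest had 0 counts in both. Their levels in the low libraries lay within 1.5-fold of each other for 124 members (1 CPM added).

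The gap was wider among the control libraries than among the treated ones. With 1 CPM added, amidosulfuron 1 and amidosulfuron 3 exceeded amidosulfuron 2 by medians of 2.28-fold and 2.81-fold over the members. Control 1 and control 2 exceeded control 3 by medians of 6.53-fold and 3.32-fold. Over all tested transcripts the median of amidosulfuron 1 over amidosulfuron 2 was 0.919 and that of control 1 over control 3 was 0.974. Control 1 exceeded control 2 by a median of 1.74-fold in the members, against a ratio of 0.918 over all tested transcripts.

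Low counts limit these ratios. In amidosulfuron 2, 20 members had under 3 counts and 6 had none, and in control 3, 34 had under 3 and 7 had none. A count of 0 allows up to 1.05 CPM in amidosulfuron 2 and 1.24 CPM in control 3 (3 counts, counting error only). In the other libraries a count under 3 occurred for 3 members, all in amidosulfuron 1. Under 10 counts were found for 41 members in amidosulfuron 1, 82 in amidosulfuron 2 and 14 in amidosulfuron 3. In controls 1, 2 and 3 this held for 1, 8 and 96 members.

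The member with the highest score was comp58700_c0_seq1, matched to Brara.B03530 and 1041 bp long. Its estimated counts were 14.2, 4.3 and 22 in amidosulfuron 1, 2 and 3, against 129, 39.2 and 3.67 in controls 1, 2 and 3, which is 7.31, 1.5 and 10.7 CPM against 35.8, 17.7 and 1.52 CPM. Amidosulfuron 2 and control 3 were nearly equal, and the other 4 libraries lay above both. All 3 tested transcripts of Brara.B03530 were members.

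The next highest scores belonged to transcripts of similar low to middle level, with 1 exception. The transcript comp53457_c0_seq1 (Brara.F00294, 1329 bp) stood at 12.4, 3.14 and 19.9 CPM in amidosulfuron 1, 2 and 3, against 30.3, 13.5 and 2.48 CPM in controls 1, 2 and 3. For comp55866_c1_seq5 (Brara.F01405, 1114 bp) the levels were 10.0, 2.62 and 15.9 CPM in the amidosulfuron libraries, against 40.9, 19.4 and 2.69 CPM in the controls. For both, control 1 was highest. Amidosulfuron 3 lay above control 2 for comp53457_c0_seq1 and below it for comp55866_c1_seq5. The exception was comp54666_c0_seq1 (Brara.I05125, 1464 bp), which was also the third most abundant member. It had 237, 117 and 320 counts in the amidosulfuron libraries, against 1328, 385 and 95.8 in the controls. Its levels were 122, 40.7 and 155 CPM in the amidosulfuron libraries, against 369, 174 and 39.7 CPM in the controls. At these counts the counting error is small, but the same values put the transcript on the list.

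The fifth and sixth scores were those of comp47512_c0_seq2 (Brara.B03749, 990 bp) and comp58824_c1_seq3 (Brara.G00197, 1226 bp). The transcript comp47512_c0_seq2 stood at 8.49, 1.57 and 6.55 CPM in the amidosulfuron libraries, against 22.1, 11.7 and 1.24 CPM in the controls. The transcript comp58824_c1_seq3 stood at 20.7, 5.68 and 22.5 CPM in the amidosulfuron libraries, against 45.5, 18.4 and 2.69 CPM in the controls. Here amidosulfuron 1 and 3 were both above control 2. A second transcript of the same assembly component, comp58824_c1_seq2, was assigned to another gene, Brara.F02506, and had 57.3, 24.4 and 89.6 CPM in the amidosulfuron libraries, against 200 CPM in control 1, 66.6 in control 2 and 14.7 in control 3.

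A steeper pattern was seen in the 3 members with a ratio over 16, a group picked after its values were seen. The first of them is also the most abundant member. The last is also the fall with the lowest p in the treatment comparison below. The transcript comp51557_c0_seq1 (Brara.H01041, 854 bp) had 7.0, 5.0 and 140 counts in amidosulfuron 1, 2 and 3, against 2217, 1284 and 4.5 in controls 1, 2 and 3. On the authors' per-length scale it stood at 1.3, 0.6 and 26.3 RPKM against 246, 227 and 0.693 RPKM. The drop thus separated controls 1 and 2 from the rest, with amidosulfuron 3 between and amidosulfuron 1 close to the low pair. The transcript comp48999_c0_seq1 (Brara.I02775, 771 bp) had 2, 0 and 34 counts in the amidosulfuron libraries, against 195, 161 and 0 in the controls. The transcript comp51705_c0_seq2 (Brara.C03129, 962 bp) had 3, 1 and 3 counts in the amidosulfuron libraries, against 188, 205 and 1 in the controls. In each of these 3 transcripts amidosulfuron 1 was at or below 3.60 CPM, close to the low pair. The score uses the lowest of the higher libraries, so their place on the list rests on differences of a few counts. Their high ratios come mostly from controls 1 and 2.

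**Figure D2:**
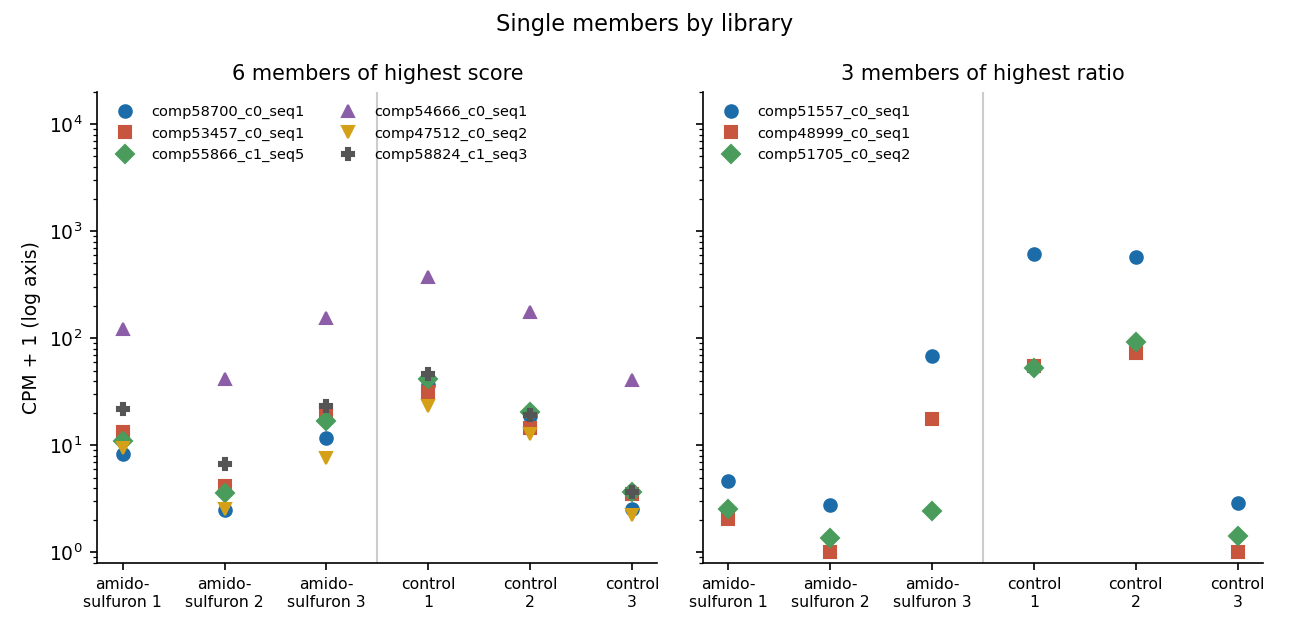
Levels of single transcripts in each library, as CPM + 1 on a log axis (1 marker per transcript and library, amidosulfuron libraries left of the line, control libraries right). The 6 transcripts of highest score share a graded pattern, while the 3 of highest ratio are high in controls 1 and 2, with comp51557_c0_seq1 at 616 and 579 CPM there and 1.86 CPM in control 3.

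The other abundant members showed the pattern with smaller ratios. The transcript comp57059_c0_seq1 (Brara.G01946, 1320 bp) stood at 48.1, 9.2 and 40.1 RPKM in amidosulfuron 1, 2 and 3, against 64.7, 49.0 and 24.5 RPKM in controls 1, 2 and 3. Its low libraries differed from each other more than those of most members. The transcript comp54290_c1_seq2 (Brara.B01899, 1095 bp) stood at 32.6, 17.5 and 38.8 RPKM, against 43.0, 35.7 and 21.9 RPKM in the controls, with a ratio of 1.82. The transcript comp57643_c0_seq1 (Brara.H00748, 1697 bp) stood at 15.1, 5.2 and 19.5 RPKM, against 32.8, 20.8 and 8.43 RPKM in the controls.

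At the edge of the list the scores ran on without a gap. The last members were comp55276_c1_seq2 (Brara.I04122) and comp58390_c1_seq1 (Brara.I04098), both with a score of 1.53. The first transcripts outside were comp58379_c0_seq18 (Brara.E00536) with 1.53 and comp56345_c0_seq1 (Brara.A00090) with 1.52. The highest score was 3.30 and the median 1.83.

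Several genes contributed more than 1 member. Of the 150 transcripts, 137 matched 110 Brassica rapa genes and 13, or 8.67%, had no match, against 11.4% of all tested transcripts. They came from 125 assembly components, and 100 members were alone in both their gene and their component. A member without a match was counted as alone in its gene. In 2 pairs of members, 5 or 6 of the counts were equal within 0.05. These were comp16398_c0_seq1 with comp39375_c0_seq2, both among the 100, and comp54866_c0_seq2 with comp54866_c0_seq4. Transcripts of one gene or component may share reads and were not taken as independent. The most members, 5, belonged to Brara.E01093, all in the component comp56631_c0. Their summed level was 82.0, 42.6 and 101 CPM in amidosulfuron 1, 2 and 3, against 157, 114 and 44.0 CPM in controls 1, 2 and 3. All 4 tested transcripts of Brara.G02781 were members, with a sum of 53.6, 23.4 and 59.9 CPM in the amidosulfuron libraries, against 82.6, 55.3 and 16.2 CPM in the controls. In both genes amidosulfuron 1 and 3 lay nearer to control 2 than to the low pair.

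The component comp53760_c0 also held 5 members, matched to Brara.A02668, Brara.A03701 and Brara.E03355, and its neighbour in the assembly, comp53760_c1, held 4 more. The 5 members of comp53760_c0 summed to 53.7, 22.1 and 66.9 CPM in amidosulfuron 1, 2 and 3, against 318, 129 and 19.9 CPM in controls 1, 2 and 3. With all tabulated transcripts of the gene summed, Brara.A02668 stood at 30.6, 12.9 and 41.3 CPM in the amidosulfuron libraries, against 186, 78.4 and 11.0 CPM in the controls. Each table holds part of a library, so a gene may have transcripts outside these sums. For Brara.A03701 the sums were 36.8, 20.6 and 45.5 CPM in the amidosulfuron libraries, against 189, 99.4 and 17.4 CPM in the controls. Controls 1 and 2 were above all 3 treated libraries in these genes. Reads of similar transcripts may be shared among these genes, since the sources used here do not state how such reads were counted, and the genes' values are uncertain to that extent.

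The pattern extended to other transcripts of the same genes. Of the 110 genes, 38 had tested transcripts outside the list, 54 in all, and for 39 of these, or 72.2%, the 4 libraries stood above both amidosulfuron 2 and control 3. Their median ratio was 2.76 (range 0.969 to 5.27). Among the 34 of them in components without a member the count was 25, or 73.5%. Some of these components are neighbours of a member's in the assembly, such as comp56150_c0 beside comp56150_c1. Transcripts of a member's component that matched another gene or none met the condition in 5 of 17 cases, or 29.4%, with a median ratio of 1.27. Of all tested transcripts outside the list, 7.47% met this condition and the median ratio was 1.01. These relatives use the same libraries as the rule, and may share reads with a member, so the shares are descriptions. Not every relative followed: comp50059_c0_seq1, matched like the member comp31322_c0_seq1 to Brara.K00936, stood at 74.6, 60.9 and 53.0 CPM in amidosulfuron 1, 2 and 3, against 26.0, 53.2 and 45.8 CPM in controls 1, 2 and 3. With tabulated counts summed per gene, 103 of the 110 genes had the 4 libraries above the low pair, and the median ratio was 3.86. These sums include the members themselves, and in 72 of the genes every tested transcript was a member. The rule therefore largely set the sums.

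**Figure D3:**
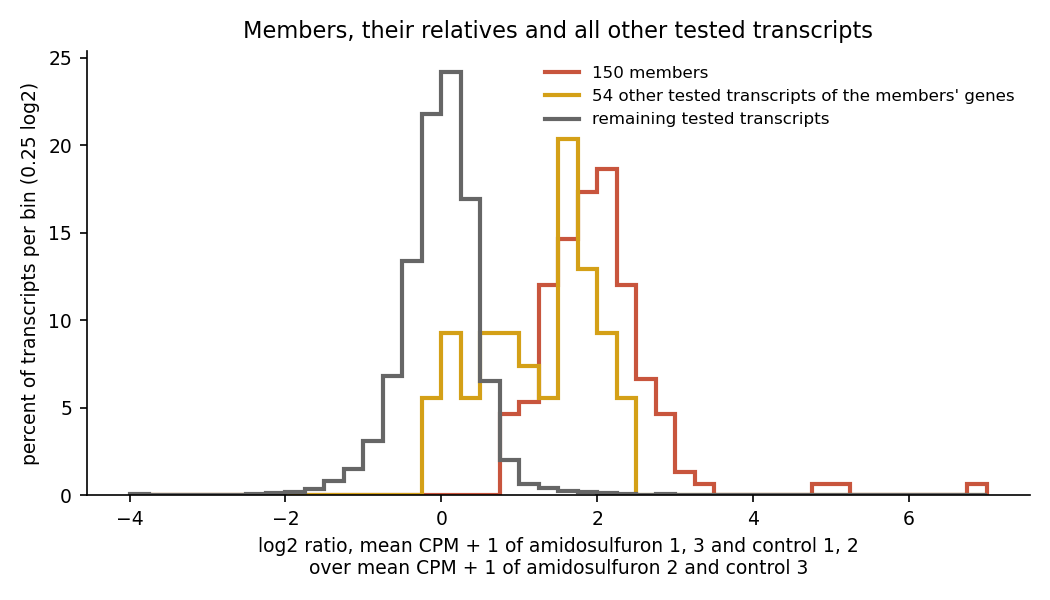
Share of transcripts per bin of the log2 ratio between the 4 higher libraries and amidosulfuron 2 with control 3 (1 CPM added to each mean), for the 150 members, the 54 other tested transcripts of their genes and the remaining tested transcripts; values beyond the axis are in the outermost bins. The relatives of the members lie mostly between the members and the remaining transcripts, with a median ratio of 2.76, against 3.82 for the members and 1.01 for all tested transcripts outside the list.

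The members were somewhat longer, and more of them had whole counts, than over all tested transcripts. Their median length was 1051.5 bp (quartiles 808.75 and 1297.75), against 899 bp (567 and 1283) over the 24950 tested transcripts with a length. Their median of the mean RPKM over the libraries was 3.70, against 5.07 over all tested transcripts. The counts of 33 members were exactly whole as deposited in all 6 libraries, which is 22%, against 11.0% of all tested transcripts; the amidosulfuron counts were deposited to 1 decimal, so rounding can make a value whole. The median ratio of these 33 was 3.85, against 3.796 for the other members, so transcripts with whole and with fractional counts showed ratios of about the same size.

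The direction of the members was met by 2004 tested transcripts, against 2994, or 12.0%, with the opposite pattern, in which both amidosulfuron 2 and control 3 stood above the other 4 libraries. The 150 with the highest reversed score matched 114 genes, of which 0 were among the 110 genes of the members, and shared 0 of 125 components with them. Each list covers few of the 12039 genes tested, so nothing is read from the lack of overlap. Ratios over 8 were reached by 6 members, against 25 transcripts of the reversed list, with its ratio taken the other way round.

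The treatment comparison asks which transcripts differ between sprayed and control buds, a contrast the rule did not use. None of the 150 passed it: 0 rose and 0 fell past the threshold of 0.05 on the p adjusted by Benjamini-Hochberg over all 24958 (quasi-likelihood test of edgeR), and the lowest adjusted p was 0.246. Of all tested transcripts 0.16% were called higher and 0.0321% lower. At an unadjusted p under 0.05 edgeR gave 1 member higher and 11 lower, against 5.76% and 5.38% of all tested transcripts. DESeq2 and limma-voom also called 0 members in either direction. Over all tested transcripts DESeq2 called 185 higher and 116 lower. For limma-voom these counts were 0 and 0, so its 0 for the members tells nothing about them. The choice of the members put 1 low library into each group, which widens the spread within groups by construction and so works against a call.

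The fitted fold changes were mostly below 0, and their median moved with the libraries in the fit. The median log2 fold change of amidosulfuron over control was -0.84 over the members (quartiles -1.26 and -0.31), against -0.02 over all tested transcripts, and it was negative for 136 of 150, against 51.7% of all. Without control 1, the median was 0.05 and 67 of 150 were negative, against 52.1% of all. The summed level of the members was 1997 ± 1031 CPM in the amidosulfuron libraries and 3697 ± 2758 CPM in the control libraries (SD, n = 3 each). Without control 3 the median was -1.31, with 145 of 150 negative, and without amidosulfuron 2 it was -0.37. In each of these fits the rule itself shifts the median, since the groups then hold unequal shares of low libraries: without control 1, for example, 1 of 2 controls is a library chosen to be low, against 1 of 3 treated libraries. The part of control 1 in the negative median was therefore not separated from the choice of the members.

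**Figure D4:**
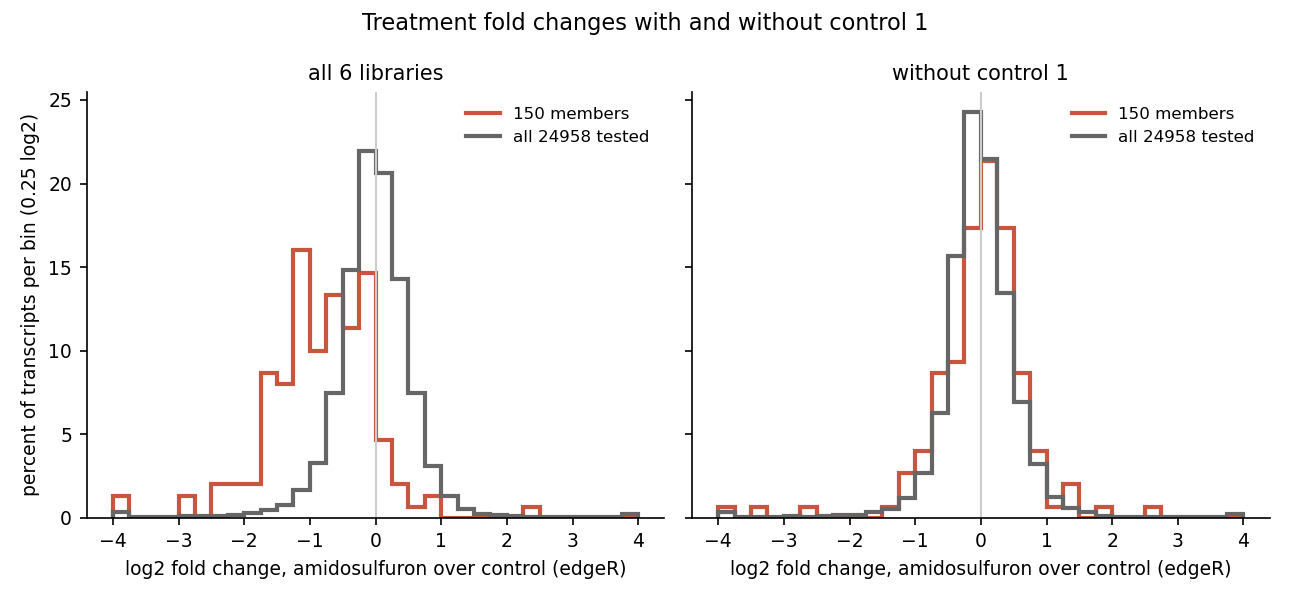
Share of transcripts per bin of the fitted log2 fold change of amidosulfuron over control (edgeR), for the 150 members and all 24958 tested transcripts, with all 6 libraries on the left and without control 1 on the right; values beyond the axis are in the outermost bins. The members centre on -0.84 with all libraries and on 0.05 without control 1, a fit in which 1 of 2 controls is a library the rule required to be low.

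Amidosulfuron 2 and control 3 stand apart from their groups, so the comparison is also given without them. All 6 libraries entered the rule, and the 4 that are left set the upper part of the score, so this fit is a description and is not independent of the choice of the members. The median log2 fold change of the members was then -0.87, against -0.03 for all, and 131 of 150 were negative, against 52.3% of all. In the same 4 libraries, amidosulfuron 1 and 3 were both below controls 1 and 2 for 78 members, against 29.0% of all tested transcripts, and both above for 7, against 19.6%. In this fit 1 member was past the threshold upwards and 1 downwards (edgeR), where 0.657% and 0.264% of all tested transcripts were called. The libraries left out are those the rule required to be low, so nothing is read from these counts.

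The fall with the lowest p among the members was that of comp51705_c0_seq2. It stood at 1.54, 0.349 and 1.46 CPM in amidosulfuron 1, 2 and 3, against 52.3, 92.2 and 0.414 CPM in controls 1, 2 and 3. Control 3 lay within the treated values, and the means were 1.12 ± 0.666 CPM in amidosulfuron buds and 48.3 ± 46.0 CPM in control buds (SD, n = 3 each). The fitted log2 fold change was -5.42 ± 1.37 (SE) and did not pass the threshold (edgeR adjusted p = 0.246). Without amidosulfuron 2 and control 3 it was -5.44, a value given with no p because the rule required control 3 to be low. The other tested transcript of its gene, comp51705_c0_seq7, stood at 4.27, 2.75 and 3.98 CPM in the amidosulfuron libraries, against 16.1, 33.1 and 4.62 CPM in the controls, again with control 3 near the treated libraries.

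The rise with the lowest p among the members was that of comp49540_c0_seq1, matched to Brara.B02968 and 727 bp long. It stood at 83.9, 5.58 and 49.96 CPM in amidosulfuron 1, 2 and 3, against 12.2, 15.3 and 2.48 CPM in controls 1, 2 and 3. Amidosulfuron 2 lay within the control values, and amidosulfuron 1 and 3 lay above all controls. The means were 46.5 ± 39.3 CPM in amidosulfuron buds and 10.0 ± 6.70 CPM in control buds (SD, n = 3 each). The fitted log2 fold change was 2.26 ± 0.87 (SE) and did not pass the threshold (edgeR adjusted p = 0.4). Without amidosulfuron 2 and control 3 it was 2.37, again given with no p because the rule required amidosulfuron 2 to be low.

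The most abundant member, comp51557_c0_seq1, averaged 24.4 ± 37.6 CPM in amidosulfuron buds and 399 ± 344 CPM in control buds (SD, n = 3 each). Its fitted log2 fold change of -3.99 ± 1.65 (SE) did not pass the threshold (edgeR adjusted p = 0.43). Controls 1 and 2 lay above every treated library for this transcript, and control 3 lay among the lowest.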

How the data were processed

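Digital gene expression libraries of buds were sequenced from a single end. Per the series' design text, the authors aligned clean 36 nt reads with Bowtie2 2.1.0, with 1 mismatch allowed, to transcripts of an earlier Trinity assembly, and matched these to Brassica rapa FPsc 1.3 genes. The deposited tables give an estimated count per transcript, not normalized and with fractions, and an RPKM value that the authors normalized to transcript length and mapped reads. The treatment of reads with several hits is not stated in these sources. The labels say that normalized cDNA was made, without the method; evening out abundances would shrink differences between transcripts. The tabulated counts are 30.1% to 34.1% of the reads behind the RPKM values, so each table holds part of a library. Lengths come from count and RPKM and were whole for 100% of transcripts with a value (tolerance 0.05 bp).

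Levels are CPM on tabulated totals. The treatment comparison used edgeR 4.0.16 in R 4.3.3 on counts rounded to whole numbers (TMM, glmQLFit, glmQLFTest, group as the only term). Transcripts with an upper quartile under 10 counts were left out, as in the design text. The SE is the fold change divided by the root of the F statistic. On counts simulated for this comparison over 24958 transcripts, edgeR found 100% of 16-fold rises, 96% of 16-fold falls, 88% of 4-fold rises and 72% of 4-fold falls, with 11 false among 189 calls. The simulated libraries of a group shared the same expected level. The members hold 1 low library in each group, so these percentages do not give the recovery for the members. Also run were limma-voom with limma 3.58.1, DESeq2 1.42.0, other filters and scalings, sums per gene or component, a replicate block and libraries left out. Figures used matplotlib 3.10.9.

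Named transcripts are the 6 of highest score, the 6 of highest mean CPM, those on either side of the list's edge, the rise and the fall with the lowest p, and the genes and components with the most members, ties by identifier. Others are named as examples chosen after their values were seen. The members and this rule were chosen with earlier results of these data known. Lists of pathway and cell type genes written for the comparison were not used, since the gene table given here pairs none of the identifiers with a symbol. No sequence of the transcripts was used here. Counting floors of 3 counts cover counting error only.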

Additional observations from a re-analysis of the deposited data

How the results depend on the processing

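The list depended on single libraries. Of the 150 members, 142 were kept with TMM-scaled library sizes, 127 with the RPKM denominators, 129 and 121 with 0.1 and 5 CPM added, 108 with no count filter and 101 with an upper quartile of 20 counts. With each library left out of the score in turn the number kept ran from 34 (without control 3) to 134 (without control 1), with 85 without amidosulfuron 1 and 84 without amidosulfuron 2. The log2 of the median ratio, 1.93, was 1.23 with 5 CPM added and lay between 1.23 and 2.31 over all settings. For the treatment comparison, 0 members were called in either direction, except 1 lower with no count filter or without control 3 (0 to 1 over libraries left out), and 1 higher and 1 lower without amidosulfuron 2 and control 3. Over all transcripts, the 40 higher and 8 lower became 54 and 13 with library totals, 185 and 116 with DESeq2, 0 and 0 with limma-voom, 246 and 269 with no filter, 49 and 15 with filterByExpr, 16 and 3 summed per gene, and 164 and 66 without amidosulfuron 2 and control 3. Leaving out single libraries gave 0 to 224 higher and 0 to 16 lower. The members' median log2 fold change (alternatives added after seeing the data) was negative in every fit except that without control 1, at 0.046, and ran from -1.31 to 0.046 over libraries left out; such fits hold unequal shares of the low libraries in the 2 groups, so the rule itself shifts the median. With the replicate number as a block, 75 and 44 transcripts and 0 members were called. The labels do not say that numbers pair the libraries, and the deviations of same-numbered libraries from their group means had correlations of 0.14, -0.12 and -0.40, while control 3 correlated best with amidosulfuron 2 (0.36). Under DESeq2, limma-voom, no filter and filterByExpr, the members' median was -0.78, -0.72, -0.85 and -0.88.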
